A study of Homo sapiens with 6 samples.

Results

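The arrestin fold is shared by alpha-arrestins, of which the 5 genes *TXNIP*, *ARRDC1*, *ARRDC2*, *ARRDC3*, and *ARRDC4* were examined, and by the 2 beta-arrestin genes *ARRB1* and *ARRB2*. These genes were examined together with *MLX*, *MLXIP*, and *MLXIPL*, the factors through which glucose is known to drive *TXNIP* and *ARRDC4*. The 10 genes were chosen by symbol, and each had a row among the 29483 genes of the FPKM table (fragments relative to the length of the gene and the depth of the library). The cells were HK-2, an immortalized line of human renal proximal tubular epithelium. All cells of both groups were kept in 25 mM glucose (HG) for 7 days. For 1 further day, 10 μM TEPP-46 was added in the case group and not in the control group. TEPP-46 is a small molecule that activates the glycolytic enzyme PKM2 by holding it as a tetramer. With 3 replicates in each group, 6 libraries were sequenced, and no library came from cells outside HG, so that an effect of glucose itself could not be measured. The replicates were cultures of 1 cell line, and p-values measure only the spread between these cultures.

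In this pathway, sugar phosphates inside the cell bring MondoA (encoded by *MLXIP*) or ChREBP (encoded by *MLXIPL*) into the nucleus, where either factor pairs with MLX and binds carbohydrate response elements. *TXNIP* is the best known target. Its protein binds and inhibits thioredoxin and promotes internalization of glucose transporters, and it has been studied in the kidney under high glucose. Alpha-arrestins bind ubiquitin ligases of the NEDD4 family through PPxY motifs and direct membrane proteins to degradation, whereas beta-arrestins bind phosphorylated receptors and link them to clathrin and the AP2 adaptor.

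Promoter sequence is shown for the members whose windows hold the letters that MLX heterodimers are known to bind. RefSeq windows of GRCh38.p14, from 250 bases before to 50 bases after a gene start, were found for 9 of the 10 genes, and *ARRB1* was the other gene. The patterns below were searched on both strands. CACGTG, the E-box, was in 7.26% of the 35116 windows of all genes. CACGNG, which includes the E-box, was in 30.5% of them. A pair of CACGNG spaced by 5 bases (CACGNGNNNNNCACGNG) was in 0.057% of them, or 20 windows. The 9 genes had 12 windows, since *TXNIP*, *ARRDC2*, and *ARRDC3* had 2 each. Of these 12 windows, 6 held CACGNG, each in a different gene, 2 held an E-box (*ARRDC4* and *MLX*), and only 1, of *TXNIP*, held the spaced pair. The stretches that hold the pair or the E-box are given below, each 5′ to 3′ on the strand of its gene, with the matching bases in capitals, and positions counted from the RefSeq start of the window with -1 as the base before it. For *MLX*, that start lies downstream of the start given with its values below. The *TXNIP* stretch is chr1:145996624-145996694 (minus strand), with its match at -88 to -72. The *ARRDC4* stretch is chr15:97960466-97960525 (plus strand), with its match at -210 to -205. The *MLX* stretch is chr17:42567023-42567082 (plus strand), with its match at -50 to -45.
TXNIP: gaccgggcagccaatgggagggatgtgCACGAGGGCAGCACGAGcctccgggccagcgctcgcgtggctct
ARRDC4: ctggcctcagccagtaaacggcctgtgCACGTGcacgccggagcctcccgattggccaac
MLX: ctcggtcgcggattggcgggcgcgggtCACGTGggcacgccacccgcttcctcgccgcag
A match is a description of letters in these windows, and binding was not measured.

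Reads on genes, as recovered from the FPKM values, numbered 18573605 in control replicate 1, 17864227 in control replicate 2, and 17320645 in control replicate 3. The case libraries held 16656162, 15992911, and 15310649 in the same order. Every case library held fewer such reads on genes than every control library. On the first principal component, which held 37.2% of the variance, the control libraries scored between -27.8 and -22.9, case replicates 1 and 3 scored 30.5 and 34.4, and case replicate 2 scored 9.54. Case replicate 2 therefore stood nearest to the control group, and for some results the value without it is also given. The replicates of the case group also varied more, with a median SD on the log2 scale of 0.19 over the tested genes against 0.09 in the control group.

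The proximal tubular label was checked against marker genes. Of 12 proximal tubule markers, 9 had a row, and none exceeded 0.206 FPKM in any library (*GGT1*). *LRP2* and *CUBN*, which encode the uptake receptors megalin and cubilin, were among these markers at or near 0. Epithelial keratins were abundant, led by *KRT19* at a mean of 346 FPKM. Of 7 tested genes in the epithelial list, which also holds *VIM* for the mesenchymal filament vimentin, 5 were not called. The list held 1 upregulated and 1 downregulated gene (7.34% and 5.84% of all tested genes). In the case group, *VIM* rose [log2 fold change = 0.66, SE 0.13, adjusted p = 0.0204 by limma] and *CDH1*, which encodes E-cadherin, fell [-0.64, SE 0.11, adjusted p = 0.0156 by limma], and both calls were lost without any 1 of the control replicates or case replicate 3. The *VIM* call was also lost without the intensity trend (adjusted p = 0.0512 by limma) and without a filter (adjusted p = 0.0631). Markers of distal tubule, endothelium, and fibroblasts reached at most 0.0262, 0.179, and 0.350 FPKM. Of 6 leukocyte markers, 4 had a row. Their sum was 0.907, 0.621, and 0.948 FPKM in the control group and 0.286, 0.231, and 0.306 FPKM in the case group, nearly all of it *CD14*, which was downregulated on 7 to 31 reads [-1.24, adjusted p = 0.0384 by limma]. That call was lost without control replicate 2 or case replicate 3, and without control replicate 1 or 3 the gene was below the filter. It was also lost without a filter (adjusted p = 0.0695 by limma) and with a replicate block (adjusted p = 0.0613 by limma). The part of *CD14* RNA in other results was not tested. In bulk RNA, fewer cells of a type and less RNA per cell cannot be told apart.

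Across the 10 genes, 1 gene was upregulated (*ARRDC2*) and 1 was downregulated (*ARRB1*) in the case group. The comparison used limma on log2 values, tested genes whose mean reached 0.5 FPKM, and called a DE gene at an adjusted p of at most 0.05. In all, 9 of the 10 genes were tested and *ARRDC4* was below the filter. Of the 13599 tested genes, 13.2% were DE genes, with 7.34% (998) upregulated and 5.84% (794) downregulated. Without scaling between the libraries, the split was 662 upregulated and 1124 downregulated, and with TPM scaling it was 383 and 2387. Among the 9 tested members, the log2 fold change had a median of -0.29, whereas over all tested genes it was -0.0017. That median was -0.14 with a pseudocount of 1, -0.04 over the 7 members with a mean of at least 1 FPKM, -0.18 without case replicate 1, and -0.47 under TPM, where the median of all genes was -0.19. The groups did not overlap after scaling in 6 members, 2 of them higher and 4 lower in the case group, against 39.9% of all tested genes without overlap (19.5% higher and 20.4% lower). An unadjusted p under 0.05 was reached by 4 of the 9 members and by 33.1% of all tested genes. The number of DE genes changed when a library was left out. Against 1792 with all libraries, it fell to 105, 69, and 87 without control replicate 1, 2, and 3. Leaving out case replicate 3 gave 192, and leaving out case replicate 2 gave 3495. In the fits that lacked a control replicate, the log2 fold change of *ARRB1* lay between -1.13 and -0.99 (-1.08 with all libraries). That of *ARRDC2* lay between 0.51 and 0.57 (0.55 with all libraries). Such fits also have fewer libraries from which to estimate the spread. Whether calls were lost for that reason or through the library left out was not tested.

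**Figure D1:**
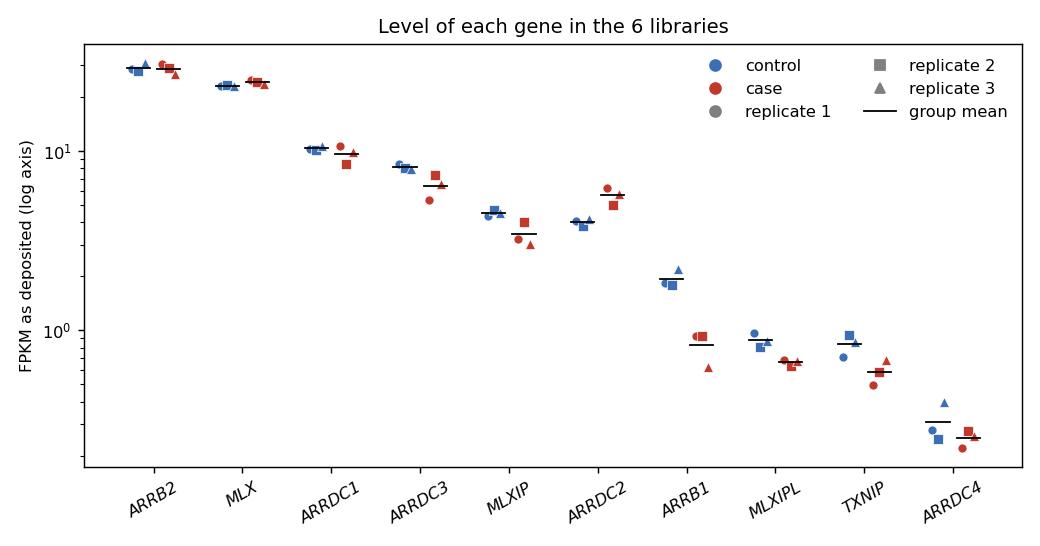
FPKM as deposited (log axis) of the 10 genes in the 3 control libraries (blue) and the 3 case libraries (red), with symbols for the replicate and black lines for group means. *ARRB2* and *MLX* lie near 20 to 30 FPKM in both groups, *ARRB1* separates the groups most, and *TXNIP*, *MLXIPL*, and *ARRDC4* lie below 1 FPKM.

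The levels of the genes spanned a range from *ARRB2* at 29.0 ± 1.58 FPKM to *ARRDC4* at 0.306 ± 0.0788 FPKM in the control group (SD, n = 3). In order of the control mean, the genes were *ARRB2*, *MLX*, *ARRDC1*, *ARRDC3*, *MLXIP*, *ARRDC2*, *ARRB1*, *MLXIPL*, *TXNIP*, and *ARRDC4*. Among neighbours in that order, only *MLXIPL* and *TXNIP* overlapped in their 3 libraries. In the case group, *ARRDC2* stood above *MLXIP*, and 3 neighbouring pairs overlapped, namely *ARRDC3* with *ARRDC2*, *ARRB1* with *MLXIPL*, and *MLXIPL* with *TXNIP*. FPKM is scaled by gene length, so that these are comparisons of level between genes, within the limits of the length the authors used.

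*TXNIP* (ENSG00000265972, chr1:145992435-145996579) was a low gene in every library. Its level was 0.711, 0.939, and 0.857 FPKM in control replicates 1, 2, and 3, and 0.495, 0.584, and 0.682 FPKM in case replicates 1, 2, and 3. Every case library was lower than every control library as deposited, whereas control replicate 1 and case replicate 3 changed places after scaling. Behind these values stood 48, 61, and 54 reads in the control group and 30, 34, and 38 reads in the case group. The mean was 0.836 ± 0.116 FPKM against 0.587 ± 0.0936 FPKM (SD, n = 3 each), and *TXNIP* ranked at the 7.46th percentile of mean FPKM among tested genes. Its log2 fold change was -0.38 (SE 0.23, 95% confidence interval -0.92 to 0.16), and *TXNIP* was not a DE gene (adjusted p = 0.291 by limma). The estimate ran from -0.18 with a pseudocount of 1 to -0.55 under TPM.

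*ARRDC4* (ENSG00000140450, chr15:97960703-97973833), the other alpha-arrestin that MondoA is known to drive, was lower still. It measured 0.277, 0.247, and 0.396 FPKM in the control group and 0.220, 0.275, and 0.256 FPKM in the case group. The groups overlapped, and no library held more than 28 reads of the gene. When all genes above 0 were tested without a filter, its log2 fold change was -0.13 (adjusted p = 0.823 by limma). The ratio of *ARRDC4* to *TXNIP* within a library was 0.389, 0.263, and 0.462 in the control group and 0.445, 0.471, and 0.375 in the case group, and the groups overlapped (exact permutation test, two-sided, p = 0.6).

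*ARRDC2* (ENSG00000105643, chr19:18001132-18014102) encodes an alpha-arrestin with NEDD4-binding motifs and was the upregulated member. Its level was 4.09, 3.80, and 4.14 FPKM in the control group and 6.19, 4.97, and 5.77 FPKM in the case group. All 3 case libraries lay above all 3 control libraries, and case replicate 2 was the lowest of the case group. The mean was 4.01 ± 0.183 FPKM in the control group and 5.65 ± 0.620 FPKM in the case group (SD, n = 3 each), on 316 to 480 reads. This gave a log2 fold change of 0.55 (SE 0.12, 95% confidence interval 0.28 to 0.83), a ratio of 1.47 (adjusted p = 0.0265 by limma). The gene was a DE gene in 11 of 17 alternative analyses. Its adjusted p by limma rose to between 0.0918 and 0.118 when control replicate 1, 2, or 3 or case replicate 3 was left out, to 0.0684 without a filter, and to 0.0531 without the intensity trend, while its log2 fold change stayed between 0.36 and 0.66 in all 17.

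*ARRDC3* (ENSG00000113369, chr5:91368631-91383317) encodes an alpha-arrestin known for the degradation of beta-adrenergic receptors. It measured 8.48, 8.05, and 7.95 FPKM in the control group and 5.29, 7.30, and 6.54 FPKM in the case group. Each case library was below each control library, and case replicate 2 was closest to the control group. The log2 fold change was -0.29 (SE 0.11, 95% confidence interval -0.54 to -0.04), and the gene was not called after adjustment (adjusted p = 0.113, unadjusted p = 0.0303 by limma). Without case replicate 2 it was called at -0.37 (adjusted p = 0.0418 by limma), and with TPM scaling at -0.48 (adjusted p = 0.0411 by limma).

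*ARRDC1* (ENSG00000197070, chr9:137605685-137615360), known for the release of vesicles from the plasma membrane, was the most abundant alpha-arrestin. Its level was 10.2, 10.1, and 10.7 FPKM in the control group and 10.6, 8.45, and 9.81 FPKM in the case group. The groups overlapped, with case replicate 2 lowest. The log2 fold change was -0.03 (SE 0.12, 95% confidence interval -0.29 to 0.24, adjusted p = 0.887 by limma), and it was 0.09 without case replicate 2.

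*ARRB1* (ENSG00000137486, chr11:75260122-75351705) encodes beta-arrestin 1 and showed the largest absolute log2 fold change of the tested members. Across libraries it measured 1.82, 1.78, and 2.20 FPKM in the control group and 0.924, 0.930, and 0.625 FPKM in the case group. The highest case library was below the lowest control library, and case replicate 3 was the lowest of all. The reads were 198, 186, and 223 in the control group and 90, 87, and 56 in the case group. The mean of 1.94 ± 0.232 FPKM in the control group stood against 0.827 ± 0.174 FPKM in the case group (SD, n = 3 each). This gave a log2 fold change of -1.08 (SE 0.20, 95% confidence interval -1.53 to -0.62), a ratio of 0.474 (adjusted p = 0.0182 by limma). The gene was a DE gene in 12 of 17 alternatives. The adjusted p by limma was 0.0758, 0.0797, and 0.0860 without control replicate 1, 2, and 3, 0.0571 without case replicate 3, where the log2 fold change was -0.90, and 0.0578 without a filter. In all 17 alternatives it lay between -1.26 and -0.64.

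A separate record, ENSG00000279117, lies on the same strand within an exon of *ARRB1* (chr11:75260129-75262466) and covers 23.6% of its exon bases. Reads there can be counted on either record or on neither. This record measured 2.41, 2.89, and 1.99 FPKM in the control group and 2.099, 2.16, and 1.34 FPKM in the case group. The groups overlapped, and its log2 fold change was -0.31 (SE 0.21, adjusted p = 0.351 by limma). The difference between the 2 records was not tested.

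*ARRB2* (ENSG00000141480, chr17:4710596-4721499), which encodes beta-arrestin 2, was the most abundant of the 10 genes. It measured 28.5, 27.7, and 30.7 FPKM in the control group and 30.4, 28.9, and 26.8 FPKM in the case group. The groups overlapped. The log2 fold change was 0.06 (SE 0.09, 95% confidence interval -0.14 to 0.27, adjusted p = 0.656 by limma), and its sign changed with the scaling, to -0.14 under TPM. Within a library, where scaling plays no part, *ARRB2* was 15.6, 15.6, and 14.0 times as high as *ARRB1* in the control group and 32.9, 31.1, and 42.9 times in the case group. The geometric means were 15.0 and 35.3, and the groups did not overlap (two-sided exact permutation test, p = 0.1 and adjusted p = 0.133 over 4 ratios, where 3 against 3 libraries cannot give less than 0.1). The size of these ratios depends on gene length, which for *ARRB1* was 5828 bases behind the FPKM against 9888 annotated exon bases. The log2 ratio of *ARRB1* to *ARRB2* differed by -1.23 between the groups, and a constant gene length cancels from this difference.

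**Figure D2:**
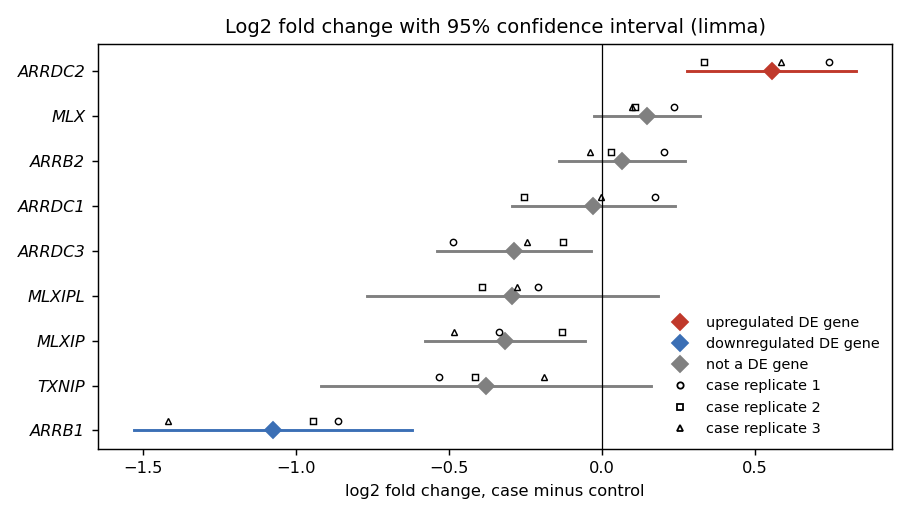
Log2 fold change of the 9 tested genes, case minus control, with 95% confidence intervals (diamonds and bars) and each case replicate minus the mean of the control group (open symbols). Only *ARRDC2* (red, 0.55) and *ARRB1* (blue, -1.08) are DE genes, and the intervals of *ARRDC3* and *MLXIP* lie below 0 before adjustment.

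Of the glucose-sensing factors, none was a DE gene. *MLXIP* (ENSG00000175727, chr12:122078756-122147344), encoding MondoA, measured 4.33, 4.65, and 4.50 FPKM in the control group and 3.23, 4.01, and 3.03 FPKM in the case group. All case libraries were lower, with case replicate 2 closest to the control group. The log2 fold change was -0.32 (SE 0.11, 95% confidence interval -0.58 to -0.06, adjusted p = 0.0983, unadjusted p = 0.0234 by limma). The gene was called in 3 of 17 alternatives, namely without case replicate 2 (-0.41, adjusted p = 0.0257 by limma), under TPM (-0.51, adjusted p = 0.0370), and by limma voom on recovered reads (-0.32, adjusted p = 0.0468).

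*MLX* (ENSG00000108788, chr17:42567072-42573239), the shared partner of MondoA and ChREBP, measured 22.8, 23.4, and 22.9 FPKM in the control group and 24.8, 24.3, and 23.5 FPKM in the case group. The case libraries were all higher by a small margin. Its log2 fold change was 0.15 (SE 0.08, 95% confidence interval -0.03 to 0.32, adjusted p = 0.208 by limma), and -0.05 under TPM. *MLX* shares 18.2% of its exon bases with *PSMC3IP* on the opposite strand, and the strandedness of the libraries is not given in the sources used here. *MLX* was 5.27, 5.03, and 5.08 times as high as *MLXIP* in the control libraries and 7.69, 6.07, and 7.75 times in the case libraries. The groups did not overlap (exact permutation test, two-sided, p = 0.1, adjusted p = 0.133), and case replicate 2 was the case library closest to the control group.

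*MLXIPL* (ENSG00000009950, chr7:73593194-73624543), which encodes ChREBP, a regulator of glycolytic and lipogenic genes in the liver, was near *TXNIP* in level. It measured 0.970, 0.811, and 0.872 FPKM in the control group and 0.684, 0.634, and 0.676 FPKM in the case group, on 49 to 87 reads. The groups did not overlap, with all case libraries lower. Its log2 fold change was -0.29 (SE 0.21, 95% confidence interval -0.77 to 0.18), and the gene was not a DE gene (adjusted p = 0.352 by limma). The estimate ran from -0.14 with a pseudocount of 1 to -0.47 under TPM.

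*PKM*, whose product TEPP-46 binds, was among the abundant genes. It measured 930, 923, and 891 FPKM in the control group and 934, 793, and 811 FPKM in the case group, with overlap. The log2 fold change was -0.04 (SE 0.10, adjusted p = 0.821 by limma), and it was 0.03 without case replicate 2. *PKM* was a downregulated DE gene under TPM (-0.24, adjusted p = 0.0432 by limma) and after quantile normalization (-0.40, adjusted p = 0.0156 by limma). The FPKM values do not separate the PKM1 and PKM2 isoforms.

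The patterns over the 6 libraries were compared with *TXNIP* by Pearson's r of log2 values among 10234 protein-coding genes with a mean of at least 1 FPKM. This r is a description over 6 libraries that share their depth and grouping, and the *TXNIP* values rest on 30 to 61 reads in a library. The 5 genes most like *TXNIP* were *MCM10* (r = 0.990), *CDK1* (0.986), *CROT* (0.983), *EIF3E* (0.983), and *MLF1* (0.983), of which *EIF3E*, a subunit of a translation initiation factor, was a downregulated DE gene (-0.38, SE 0.10, adjusted p = 0.0430 by limma), a call lost without a filter, without the intensity trend, and without any 1 of the replicates other than case replicate 2. *MCM10* and *CDK1* act in DNA replication and mitosis, and *CROT* in peroxisomal fatty acid oxidation. In all, 103 genes reached an r of 0.9. None of the other members was among them, and *ARRDC4* and *MLXIPL*, with means below 1 FPKM, were not ranked. The members on the positive side were *ARRDC3* (0.69), *ARRB1* (0.63), *MLXIP* (0.59), *MLXIPL* (0.48), and *ARRDC4* (0.36). *ARRDC1* was at -0.02, and *ARRB2* (-0.62), *ARRDC2* (-0.80), and *MLX* (-0.82) were on the negative side.

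The genes that glucose is known to drive through MondoA and ChREBP, a list that includes *TXNIP* and *ARRDC4*, were examined next. Of 20 genes, 19 had a row and 12 were tested, with 0 upregulated and 3 downregulated (13.2% of all tested genes were DE genes and 5.84% were downregulated). The median log2 fold change was -0.40 against -0.0017 for all tested genes, and it was -0.24 with a pseudocount of 1, -0.24 over the 9 genes with a mean of at least 1 FPKM, and -0.17 over 19 genes without a filter. The 3 downregulated genes make fatty acids from citrate. *FASN*, which encodes fatty acid synthase, measured 93.4, 90.4, and 85.6 FPKM in the control group and 54.2, 55.8, and 42.0 FPKM in the case group (-0.76, SE 0.12, adjusted p = 0.0136 by limma). *ACACA*, encoding acetyl-CoA carboxylase, measured 12.4, 12.9, and 11.9 FPKM against 7.28, 9.55, and 7.77 FPKM (-0.53, SE 0.10, adjusted p = 0.0204 by limma). *ACLY*, encoding ATP citrate lyase, measured 132, 137, and 127 FPKM against 95.6, 107, and 78.9 FPKM (-0.43, SE 0.11, adjusted p = 0.0434 by limma). In each of the 3 genes, all case libraries lay below all control libraries. These genes are also targets of SREBP factors. *SCD*, the most abundant gene of the list, was not a DE gene (-0.11, SE 0.09, adjusted p = 0.442 by limma), and *PKLR*, a classical ChREBP target of the liver, held 0 to 2 reads in a library. Without control replicate 1, 2, or 3, the list held 0 DE genes, and without case replicate 3 or without a filter it held 1 (*FASN*). The *ACLY* call was also lost without the intensity trend (adjusted p = 0.0845 by limma).

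In the MLX and MAX network, the related factors that pair with MLX or MAX at E-boxes, 9 of 10 genes were tested, with 1 upregulated and 0 downregulated (7.34% and 5.84% of all tested genes). The median was -0.10, but 0.05 over the 8 genes with a mean of at least 1 FPKM, 0.0086 without case replicate 1, and -0.29 under TPM. The upregulated gene was *MYC*, at 52.7, 48.9, and 53.2 FPKM in the control group and 72.8, 63.3, and 65.3 FPKM in the case group. These values did not overlap (0.45, SE 0.10, adjusted p = 0.0245 by limma). This call was lost without any 1 of the control replicates or case replicate 3, without a filter, and without the intensity trend.

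The thioredoxin system includes thioredoxin, which TXNIP is known to bind. It held 0 DE genes among 18 tested by limma (13.2% of all tested genes). Of the 18, 8 reached an unadjusted p under 0.05 by limma (33.1% of all tested genes). By limma voom on recovered reads, 5 were DE genes, all upregulated, against 20.7% of the 13591 genes tested that way (1302 upregulated), and without case replicate 2 limma called 7 of them, against 25.7% of all genes tested in that fit. The median log2 fold change was 0.19 with 15 genes above 0, but it was -0.01 under TPM, where the median of all genes moved to -0.19, and 0.01 after quantile normalization. *TXN*, encoding thioredoxin, measured 532, 560.2, and 565 FPKM in the control group and 605, 573, and 664 FPKM in the case group. All case libraries were higher, and the gene was not called (0.23, SE 0.09, adjusted p = 0.117 by limma). *TXN* was 749, 597, and 659 times as high as *TXNIP* in the control libraries and 1222, 981, and 973 times in the case libraries, without overlap (exact permutation test, two-sided, p = 0.1, adjusted p = 0.133). Of the inflammasome genes, to which TXNIP has been linked through NLRP3, 5 of 11 were tested, with 1 upregulated and 0 downregulated (7.34% and 5.84% of all tested genes). *CASP4*, encoding an inflammatory caspase, rose from 4.60, 4.44, and 4.45 FPKM to 5.95, 6.13, and 6.83 FPKM (0.55, SE 0.09, adjusted p = 0.0145 by limma), a call lost without any 1 of the control replicates or case replicate 3. *GSDMD* was the most abundant (0.03, adjusted p = 0.889 by limma), and *NLRP3*, *CASP1*, *PYCARD*, and *IL1B* were below the filter.

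**Figure D3:**
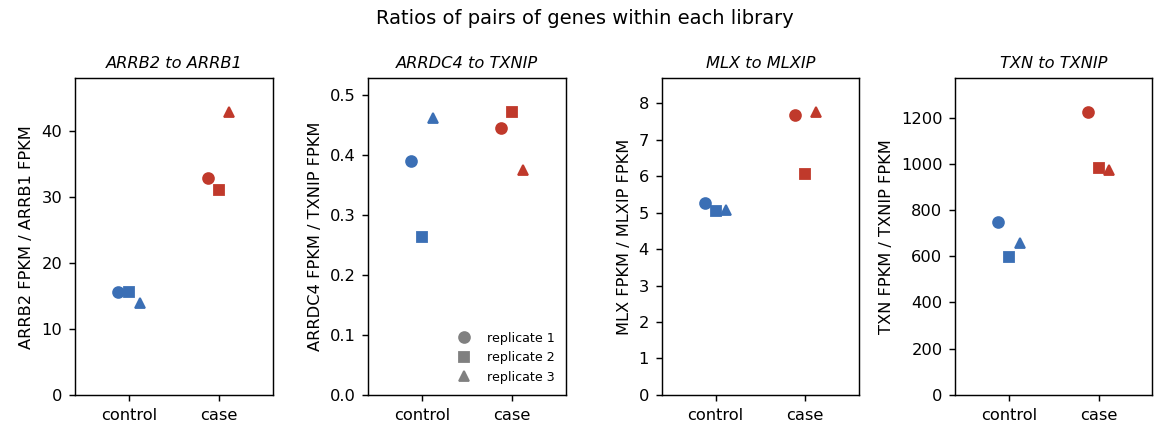
Ratio of FPKM values within each library for 4 pairs of genes in the control (blue) and case (red) group, with symbols for the replicate and each axis starting at 0. The groups do not overlap for *ARRB2* to *ARRB1*, *MLX* to *MLXIP*, and *TXN* to *TXNIP*, and they overlap for *ARRDC4* to *TXNIP*.

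Glucose transporters, which alpha-arrestins are known to remove from the membrane, and hexokinases held 0 DE genes among 9 tested by limma (13.2% of all tested genes), with 5 at an unadjusted p under 0.05 (33.1% of all tested genes), and 0 by limma voom (20.7% of all genes tested that way). *SLC2A1*, encoding GLUT1, measured 42.6, 41.9, and 44.1 FPKM in the control group and 54.3, 46.0, and 45.2 FPKM in the case group (0.25, SE 0.10, adjusted p = 0.133 by limma). The case libraries were higher, with case replicate 1 apart from the other two. *HK1* was the most abundant hexokinase (-0.23, adjusted p = 0.113 by limma).

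Among receptor kinases, clathrin chains, and AP2 subunits, the partners of beta-arrestins, all 13 genes were tested, with 2 upregulated, 1 downregulated (7.34% and 5.84% of all tested genes), and a median of -0.01, which was 0.01 without case replicate 2 and -0.20 under TPM. *CLTA*, a clathrin light chain, rose by 0.51 on the log2 scale (SE 0.09, adjusted p = 0.0159 by limma) and *AP2S1* by 0.45 (SE 0.11, adjusted p = 0.0422). *AP2B1*, the AP2 subunit that beta-arrestins bind, fell by 0.34 (SE 0.09, adjusted p = 0.0497 by limma). Each of the 3 calls was lost without any 1 of the control replicates or case replicate 3 and without a filter, and those of *AP2S1* and *AP2B1* also without case replicate 1 and without the intensity trend. The *AP2S1* call was lost under TPM as well (adjusted p = 0.0656 by limma), and that of *AP2B1* with a replicate block. Of the receptor kinases *GRK2* to *GRK6*, none was a DE gene, and *GRK2* was the most abundant (0.02, adjusted p = 0.893 by limma).

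The NEDD4 family held 0 DE genes among 8 tested by limma, with 1 at an unadjusted p under 0.05, and 0 by limma voom (13.2%, 33.1%, and 20.7% of all genes tested). *NEDD4* itself measured 25.8, 25.4, and 25.1 FPKM in the control group and 19.2, 31.0, and 24.2 FPKM in the case group (0.01, adjusted p = 0.955 by limma), with case replicates 1 and 2 on opposite sides of the control group. Of 7 other genes with an arrestin fold, *ARRDC5*, a further alpha-arrestin, and *SAG* were not analysed here, and 4 were tested. Of these, 0 were upregulated and 1 was downregulated (7.34% and 5.84% of all tested genes). The downregulated gene was *RGP1*, which acts in transport to the Golgi. It measured 13.02, 14.5, and 14.3 FPKM in the control group and 8.68, 9.90, and 6.49 FPKM in the case group, without overlap (-0.68, SE 0.15, adjusted p = 0.0265 by limma). That call was lost without any 1 of the control replicates or case replicate 3, without a filter, and without the intensity trend. The retromer gene *VPS26A* was at 0.0023 (adjusted p = 0.987 by limma). Beta-adrenergic receptor and cAMP genes held 0 DE genes among 6 tested by limma, with 3 at an unadjusted p under 0.05, and 0 by limma voom, beside the same shares of all genes.

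**Figure D4:**
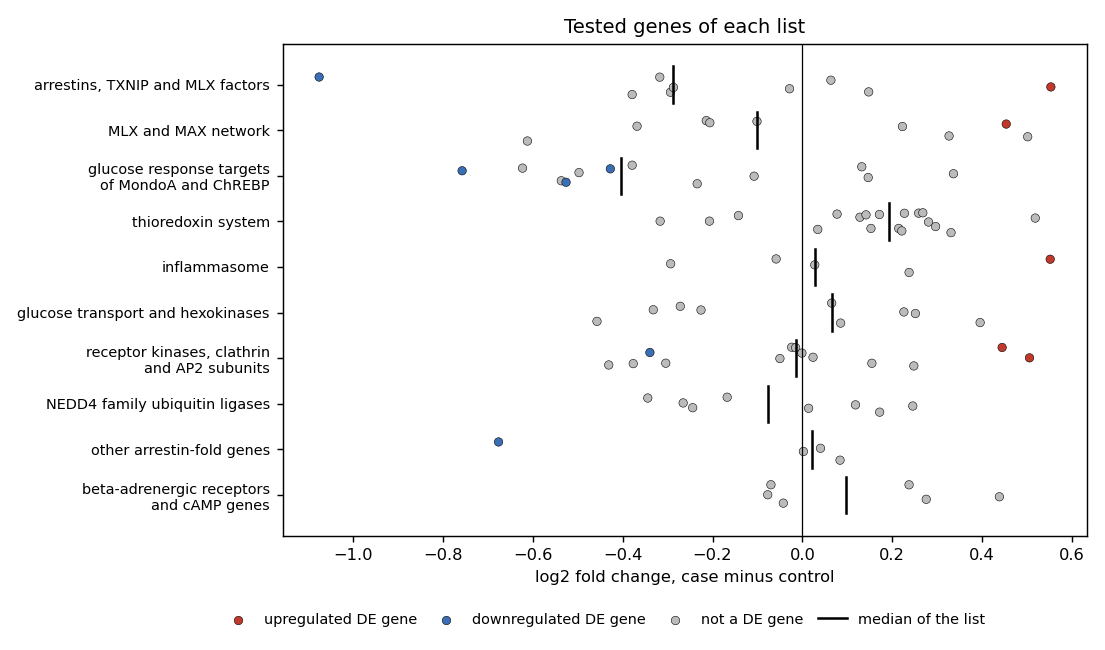
Log2 fold change (case minus control) of each tested gene, by list, with the median of each list as a black line and DE genes in colour. The 10 genes hold *ARRB1* at the far left and *ARRDC2* at the right, the glucose response targets have a median of -0.40 with this filter and pseudocount, and the thioredoxin system, the NEDD4 family, the glucose transport list, and the beta-adrenergic list hold no DE gene.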

How the data were processed

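RNA of 6 libraries (3 control, 3 case) was sequenced as paired reads of 150 bases. The deposited values are FPKM, which the authors made by alignment to GRCh38.p13 and counting on genes. The submitters' processing notes name HISAT2 2.1.0 and HTSeq 0.6.0. The authors tested case against control with DESeq2. Their counts were not used here.

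Whole reads were recovered from the FPKM values by requiring whole-number ratios within a gene (tolerance 0.01) and a whole gene length. Of 27922 genes above 0, 18647 were resolved from the values, 9069 with the annotated exon length, and 206 were not resolved. The reads of *ARRDC3* are uncertain by a common factor. Reads carried no molecular identifiers and are not independent molecules. Positions and 29063 symbols were from GENCODE 44.

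Each library was divided by its median-of-ratios factor, 0.1 was added, and log2 values were tested in R 4.3.3 with limma 3.58.1 (intensity trend, mean FPKM of at least 0.5, Benjamini-Hochberg adjustment over 13599 genes, adjusted p of at most 0.05). Fold changes are on this log2(FPKM + 0.1) scale, which understates changes of low genes. Ratios were tested by exact permutation in scipy 1.17.1. The procedure was tested on simulated data. In each list, the text names up to 3 DE genes per direction and the most abundant tested gene, except where a gene is not reported here. Other genes were chosen after their values were seen. Genes and lists were chosen with earlier results of these data known. The alternatives changed the pseudocount, filter, scaling, and limma settings, used voom on recovered reads or a replicate block, or left out each replicate.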

Additional observations from a re-analysis of the deposited data

How the results depend on the processing

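Depth limits *TXNIP*, *ARRDC4*, and *MLXIPL*, which held 15 to 87 reads in a library. *ARRB1*, a DE gene, was also low in the case libraries, at 56 to 90 reads. With 3 libraries per group, no exact permutation test can go below 0.1. *TXNIP* was called in 0 of the 16 alternatives that tested it (adjusted p between 0.124 and 0.582 by limma). The scaling moved the median of all genes to -0.08 for FPKM as deposited and to -0.19 for TPM, so that small changes are relative to it. *ARRB2* reversed to -0.013 as deposited, -0.14 under TPM, -0.036 after quantile normalization, and -0.0016 without case replicate 1. *MLX* reversed to -0.051 under TPM. With 1 replicate left out, *ARRB2* lay between -0.0016 and 0.12, *ARRDC1* between -0.12 and 0.085, and *PKM* between -0.13 and 0.030, and the last 2 were above 0 only without case replicate 2. *PKM* was called under TPM (-0.24) and after quantile normalization (-0.40). The 4 log2 ratios kept their direction in all alternatives, of which the change of gene length could not alter it. That of *TXNIP* to *ARRDC4*, -0.25 over all libraries, was -0.01 without control replicate 2 and -0.42 without control replicate 3. The SE of *TXNIP* was 0.14 without the intensity trend, against 0.23 with it. The cause of these shifts was not tested.

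Of 13599 tested genes, 1786 were DE genes as deposited, 2770 under TPM, 1768 after quantile normalization, and 852 without the trend. Without a filter, 524 of 27922 genes were DE genes, and by voom 2814 of 13591. For all genes, 662 were upregulated as deposited, 383 under TPM, 436 without the trend, and 347 without a filter. In the other direction, 2387 were downregulated under TPM, 416 without the trend, 177 without a filter, and 1512 by voom on recovered reads. Among the members, 0 were upregulated without a filter or without the trend, and 0 were downregulated without a filter, 3 under TPM, and 2 by voom. DE genes of the MLX and MAX network numbered 0 without a filter or the trend, 2 as deposited, under TPM, and after quantile normalization, and 4 by voom. The glucose response targets held 1 without a filter, 5 under TPM, and 5 by voom. The thioredoxin system held 1 under TPM and 1 after quantile normalization, both downregulated, and 5 by voom, all upregulated. The inflammasome list held 2 under TPM. Glucose transport and hexokinases held 1 as deposited, 2 under TPM, and 1 after quantile normalization. The receptor kinase and clathrin list held 0 without a filter, 1 without the trend, 5 as deposited, 5 after quantile normalization, and 6 by voom. The NEDD4 family held 1 as deposited and 1 under TPM, and other arrestin-fold genes 0 without a filter or the trend.

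With 1 replicate left out, upregulated genes numbered between 55 and 1813 and downregulated genes between 14 and 1682, upregulated members between 0 and 1, and downregulated members between 0 and 3. The lists held 0 to 2 (MLX and MAX network), 0 to 4 (glucose response targets), 0 to 7 (thioredoxin system), 0 to 2 (inflammasome), 0 to 1 (glucose transport), 0 to 4 (receptor kinases and clathrin), 0 to 0 (NEDD4 family), 0 to 1 (other arrestin-fold genes), and 0 to 1 (beta-adrenergic).

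The labels do not say whether replicate numbers mark cultures that were handled together. Deviations of same-numbered libraries correlated at 0.06, 0.10, and -0.05, which with 3 libraries per group cannot settle it. With the replicate block, 1610 genes were DE genes, and no call among the members changed (*ARRB1* adjusted p = 0.031, *ARRDC2* adjusted p = 0.029 by limma). Of the other DE genes named, *CD14* (adjusted p = 0.0613) and *AP2B1* (adjusted p = 0.0525 by limma) were not called with the block.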
